A study of Drosophila melanogaster with 6 samples.

Results

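Septate junctions were examined in RNA-seq data from Drosophila wing discs, the larval epithelia that form the adult wing, through 9 genes that encode their core components: Nrx-IV, cora, Nrg, Atpalpha, nrv2, sinu, kune, Mcr and vari. The genes were listed by name and matched by symbol to the FlyBase identifiers of the count files. Of the 9, 8 had an identifier among the 13955 genes counted and all 8 passed the filter on low counts, which left 8361 genes. Mcr, a thioester-containing protein of the junction, has an identifier in the reference table that the count files do not list, and it was not analysed here. CncC, a transcription factor of the oxidative stress response, is the counterpart of mammalian Nrf2 in flies, and it was overexpressed in a study of cell competition. There were 3 CncC overexpression and 3 control libraries, from wandering L3 females kept at 28 °C. According to the methods of the study, the CncC overexpression discs carried UAS-nrf2 together with hs-FLP, a Gal4 driver under the tubulin promoter, UAS-CD8-GFP and tub-Gal80ts, whereas the control discs carried all of these except UAS-nrf2. The sample labels instead name the control as wild type with yw in the titles, and if the controls lacked the driver, strain and driver cannot be told apart from CncC. Nothing states whether the replicates came from separate crosses, so that p-values measure the spread between these libraries.

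Pleated septate junctions lie below the adherens junctions of ectodermal epithelia and of the glia that insulate nerves, and seal the space between neighbouring cells against the diffusion of solutes. They are built from a large and stable complex of adhesion proteins (Nrx-IV, Nrg, Cont, Lac), claudins (sinu, kune, pck), the sodium pump (Atpalpha and the beta subunit nrv2) and cytoplasmic scaffolds (cora, vari). Proteins of the Ly6 family help to assemble the complex, and Gli, bark and M6 place the specialised junctions where corners of cells meet.

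The libraries held between 16464410 and 16682764 counts. cnc, the gene that encodes CncC, was at 4948, 8529 and 10304 CPM (read counts scaled to library size by TMM) in CncC overexpression replicates 1 to 3, against 117.4, 112.0 and 115.5 CPM in the control libraries, as labelled. The 7 wing disc genes with counts (vg, nub, sd, ptc, en, hh and dpp) summed to between 1158 and 1455 CPM in the CncC overexpression libraries and to between 1001 and 1219 CPM in the control libraries. By the test described below, 4 of the 7 were higher in CncC overexpression (vg, sd, ptc and dpp) and 1 was lower (en), against 30.9% higher and 31.6% lower over all genes. The 4 genes of the smooth septate junctions of the gut (Ssk, mesh, Tsp2A and hoka) had at most 12 counts in any library. Fat body genes set libraries of the same genotype apart, with sums of 8.501 to 76.42 CPM in CncC overexpression and of 11.94 to 430.6 CPM in control, where replicate 2 was the highest.

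Of the junction components measured, Nrg rose 1.90-fold in CncC overexpression and kune fell to 0.737 of its control level. The other 6 did not pass the test, and the 95% intervals of their log2 fold changes lay between -0.52 and 0.48 (edgeR's quasi-likelihood test, adjusted p-value under 0.05 with Benjamini-Hochberg adjustment over all 8361 genes). This made 1 of 8 higher and 1 of 8 lower, in libraries where 30.9% of all genes tested were higher and 31.6% lower by the same rule. With a fold change of at least 1.4 also asked for, only Nrg remained called among the members, against a background of 20.5% of genes higher and 21.1% lower. Nrg was the only member whose CncC overexpression libraries all lay above the control libraries, as did those of 33.6% of all genes. For kune and sinu they all lay below, as did those of 34.9% of all genes. The median log2 fold change of the members was -0.05, and that of all genes tested was -0.01. Together the 8 genes took 0.264%, 0.287% and 0.322% of all counts in CncC overexpression replicates 1 to 3, against 0.279%, 0.255% and 0.254% in control replicates 1 to 3. The shares overlapped between the genotypes (exact two-sided permutation test, p = 0.2, where 0.1 is the smallest value that 3 libraries against 3 can give).

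**Figure D1:**
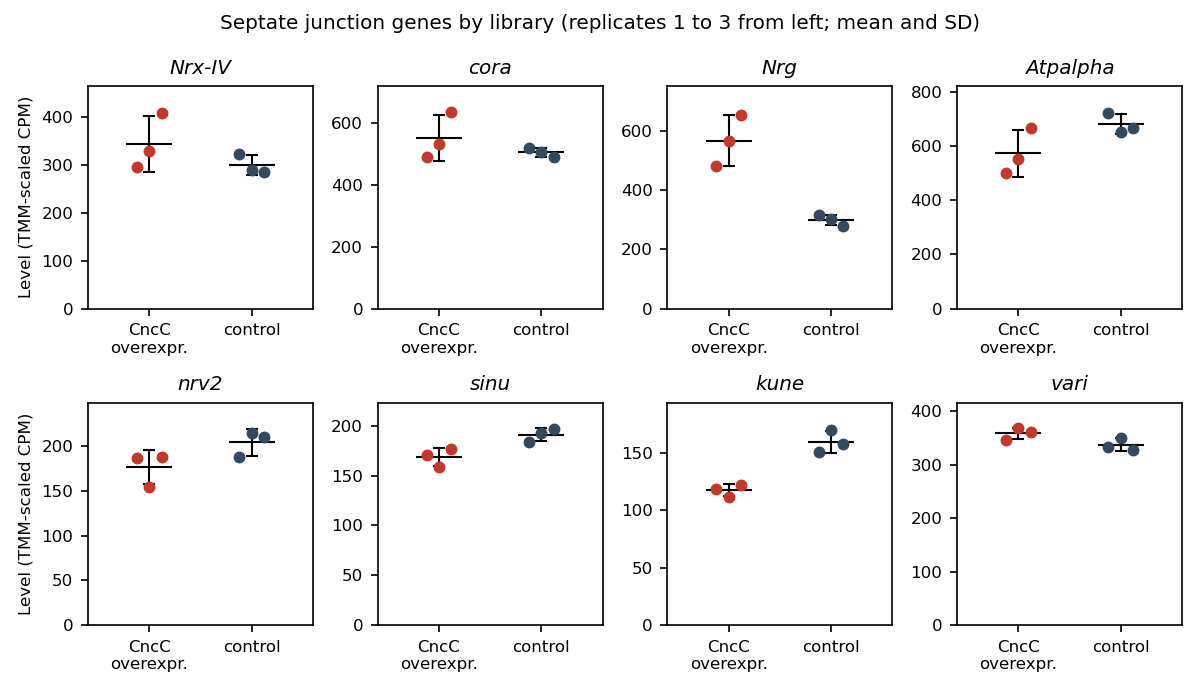
Level of each of the 8 septate junction genes (TMM-scaled CPM, linear axis from 0) in the 3 CncC overexpression and 3 control libraries, with the mean and SD. Nrg lies between 482.2 and 653.4 CPM in CncC overexpression and between 280.1 and 315.4 CPM in control, and kune is lower in all 3 CncC overexpression libraries.

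Among the adhesion proteins, Nrg (FBgn0264975, X from 8517373 to 8555170, plus strand), the fly member of the L1 family of immunoglobulin adhesion molecules, was at 482.2, 568.4 and 653.4 CPM in CncC overexpression replicates 1 to 3, against 315.4, 302.6 and 280.1 CPM in control replicates 1 to 3. Every CncC overexpression library exceeded every control library. The mean was 568 ± 85.6 CPM in CncC overexpression and 299 ± 17.9 CPM in control (SD, n = 3 each). On the log2 scale Nrg rose by 0.92 (SE, the standard error of the fit, 0.12, adjusted p = 1.47e-04 from edgeR). Nrg is expressed in neurons as well as epithelia, through different isoforms, and counts per gene do not separate these. The 6 neuronal genes listed as markers summed to between 59.9 and 77.9 CPM in CncC overexpression and to between 42.3 and 53.7 CPM in control. Of these, futsch and Syx1A rose, elav and Syt1 did not pass the test (adjusted p = 0.25 and 0.383 from edgeR), and brp had at most 5 counts in any library. The marker nSyb, too low to be tested, had 8, 18 and 12 counts in CncC overexpression, against 3, 5 and 2 counts in control. The part of these neuronal genes in the rise of Nrg was not tested. Nrx-IV (FBgn0013997, 3L from 12146519 to 12156990, plus strand), the transmembrane neurexin around which the complex forms, was at 295.5, 329.5 and 409.4 CPM in CncC overexpression, against 323.6, 289.2 and 286.6 CPM in control. The genotypes overlapped, and the log2 fold change of 0.20 (95% interval from -0.08 to 0.48, adjusted p = 0.188 from edgeR) did not pass the threshold. It passed without CncC overexpression replicate 1, at 0.31 (adjusted p = 0.0389 from edgeR). Within a library, the ratio of Nrg to Nrx-IV in counts per kb of exon does not depend on the scaling between libraries. It was 0.839, 0.887 and 0.821 in CncC overexpression, against 0.501, 0.538 and 0.502 in control. This pair, like those of the other ratios given here, was chosen after the values were seen, so that the ratios are given without a test. No trend with exon length was removed from the ratios.

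The scaffolds on the cytoplasmic side did not pass the test. cora (FBgn0010434, 2R from 19229063 to 19243751, plus strand), a FERM-domain protein of the band 4.1 family, was at 488.9, 530.4 and 634.5 CPM in CncC overexpression, against 517.5, 506.1 and 490.9 CPM in control. Its log2 fold change was 0.13 (95% interval from -0.12 to 0.38, adjusted p = 0.344 from edgeR). vari (FBgn0250785, 2L from 20788662 to 20797042, minus strand), a MAGUK scaffold, was at 346.0, 367.5 and 360.9 CPM in CncC overexpression, against 333.6, 350.1 and 326.5 CPM in control. The log2 fold change of vari was 0.09 (95% interval from -0.10 to 0.28, adjusted p = 0.386 from edgeR), so that a change of the size seen for Nrg lies outside the interval. vari shares 437 exonic bases, 15.2% of its exons, with Pomp on the opposite strand, which encodes a proteasome maturation factor and rose with a log2 fold change of 1.02 (SE 0.10, adjusted p = 2.69e-05 from edgeR). As the use of strand in counting is not stated, reads of Pomp cannot be told apart from those of vari in the shared bases. The ratio of cora to Nrx-IV was 1.41, 1.37 and 1.32 in CncC overexpression, against 1.36, 1.49 and 1.46 in control, and overlapped.

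Neither subunit of the sodium pump passed the test. Atpalpha (FBgn0002921, 3R from 20948714 to 20976239, plus strand), the catalytic alpha subunit, was at 501.9, 551.8 and 668.5 CPM in CncC overexpression, against 723.8, 654.3 and 669.3 CPM in control. The highest CncC overexpression library reached the range of the controls, and the log2 fold change was -0.25 (95% interval from -0.52 to 0.02, adjusted p = 0.0949 from edgeR). Without CncC overexpression replicate 3, Atpalpha was lower at -0.36 (adjusted p = 0.0202 from edgeR). nrv2 (FBgn0015777, 2L from 6789770 to 6798862, minus strand), the beta subunit of the junction, was at 187.1, 154.6 and 188.0 CPM in CncC overexpression, against 187.7, 215.1 and 210.8 CPM in control. Its log2 fold change was -0.21 (95% interval from -0.45 to 0.02, adjusted p = 0.102 from edgeR). Under upper-quartile scaling Atpalpha, nrv2 and sinu were lower, at -0.33, -0.28 and -0.25 (adjusted p = 0.029, 0.0398 and 0.0226 from edgeR). The ratio of Atpalpha to nrv2 was 1.43, 1.91 and 1.90 in CncC overexpression, against 2.06, 1.62 and 1.70 in control, and overlapped. Of the related beta subunits, nrv1 was at 86.3 ± 6.14 CPM in CncC overexpression and 90.1 ± 2.89 CPM in control (SD, n = 3 each) and did not pass the test (adjusted p = 0.515 from edgeR). nrv3, the beta subunit of neurons, had 18, 23 and 9 counts in CncC overexpression, against 3, 4 and 1 counts in control, too few to pass the filter. With no filter nrv3 was called higher, as were 22.2% of all genes. nrv2 made up 58.9%, 52.1% and 55.6% of the beta subunit counts per kb in CncC overexpression, against 55.3%, 60.1% and 59.2% in control. The shares of nrv2 and nrv1 overlapped between the genotypes, whereas that of nrv3, at most 0.336% in any library, was higher in all 3 CncC overexpression libraries.

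Of the 3 claudins, kune fell, whereas sinu and pck did not pass the test. With upper-quartile scaling sinu was lower as well. kune (FBgn0033032, 2R from 5671741 to 5672800, plus strand) was at 118.8, 111.6 and 122.5 CPM in CncC overexpression, against 150.7, 170.3 and 158.0 CPM in control. The lowest control library was above the highest CncC overexpression library, and the log2 fold change was -0.44 (SE 0.09, adjusted p = 0.00139 from edgeR), a fold change of 0.737. sinu (FBgn0010894, 3L from 5559470 to 5561598, minus strand) was at 170.5, 158.9 and 176.5 CPM in CncC overexpression, against 184.1, 192.8 and 196.4 CPM in control. The genotypes did not overlap, yet the log2 fold change of -0.18 (95% interval from -0.37 to 0.01, adjusted p = 0.084 from edgeR) did not pass. pck, also called Megatrachea, was at 217 ± 24.4 CPM in CncC overexpression and 235 ± 14.3 CPM in control (SD, n = 3 each), and did not pass (log2 fold change -0.11, adjusted p = 0.359 from edgeR). Of the counts per kb of these claudins, kune took 31.1%, 33.0% and 34.1% in CncC overexpression, against 37.5%, 38.7% and 36.3% in control. The ratio of kune to sinu was 1.36, 1.37 and 1.35 in CncC overexpression, against 1.595, 1.72 and 1.57 in control.

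**Figure D2:**
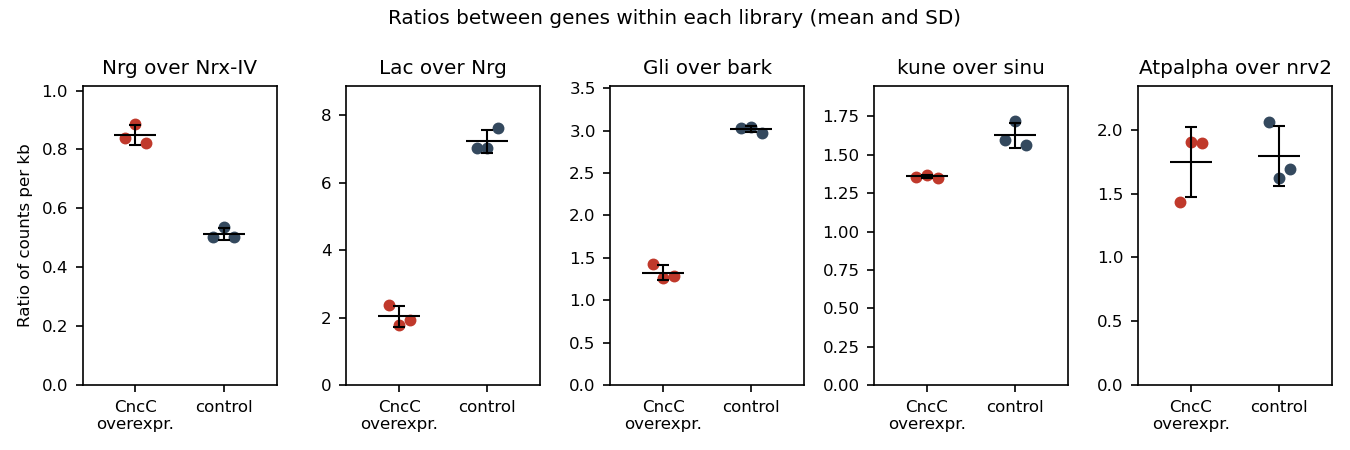
Ratios of counts per kb of exon between pairs of genes in each library, with the mean and SD of 3 CncC overexpression and 3 control libraries (linear axes from 0). The ratios of Nrg to Nrx-IV, Lac to Nrg, Gli to bark and kune to sinu do not overlap between the genotypes, whereas that of Atpalpha to nrv2 does. For Lac to Nrg and Gli to bark this follows from the levels, which lay apart in opposite directions.

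Levels were compared between the genes per kb of summed exon, which understates genes with long exons used by few isoforms. In CncC overexpression, vari had the highest level (125 ± 3.84 CPM per kb), followed by kune (111 ± 5.24), cora (91.2 ± 12.4), Atpalpha (85.9 ± 12.8), sinu (81.7 ± 4.33), Nrx-IV (67.1 ± 11.4), Nrg (56.9 ± 8.57) and nrv2 (49.5 ± 5.34; SD, n = 3). The ranges of cora and Atpalpha, Atpalpha and sinu, sinu and Nrx-IV, Nrx-IV and Nrg, and Nrg and nrv2 overlapped in this order. Overlap here compares the ranges of 2 genes over 3 libraries, not their order within a library. In control, kune led (151 ± 9.32 CPM per kb) before vari (117 ± 4.22), Atpalpha (102 ± 5.48), sinu (92.5 ± 3.06), cora (83.5 ± 2.21), Nrx-IV (58.4 ± 4.01), nrv2 (57.3 ± 4.14) and Nrg (29.96 ± 1.79; SD, n = 3), and only Nrx-IV and nrv2 overlapped. The range of Nrg, the lowest of the 8 in control, thus overlapped with those of nrv2 and Nrx-IV in CncC overexpression. Within each CncC overexpression library Nrg was below Nrx-IV, at ratios of 0.839, 0.887 and 0.821.

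**Figure D3:**
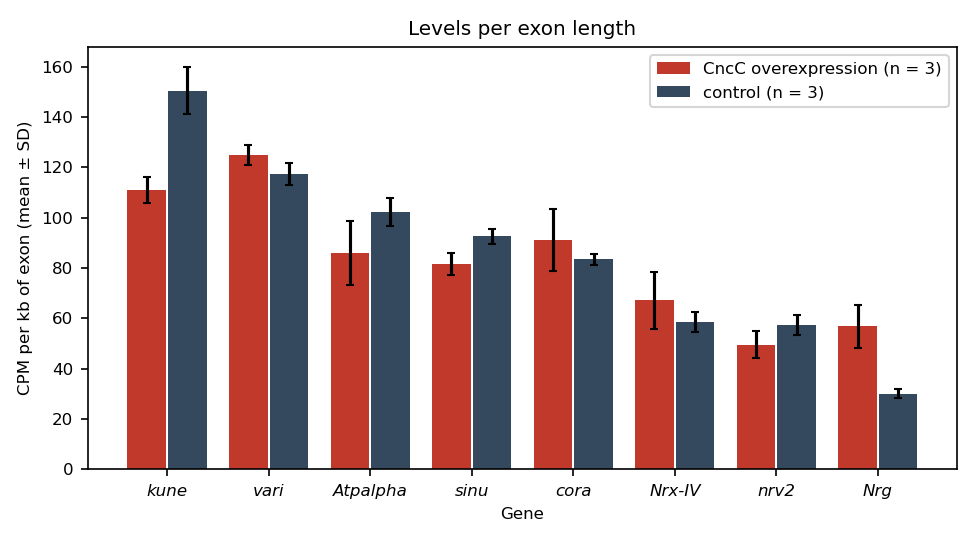
Level per kb of summed exon (TMM-scaled CPM per kb, mean ± SD, n = 3 each) of the 8 septate junction genes in CncC overexpression and control, in the order of the control. kune is at 111 CPM per kb in CncC overexpression and 151 in control, and Nrg at 56.9 in CncC overexpression and 29.96 in control.

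The 4 members with the longest exons varied in the same order within CncC overexpression. Nrx-IV, cora, Nrg and Atpalpha, with 5137 to 9991 bases of exon, were each lowest in replicate 1 and highest in replicate 3, with coefficients of variation of 13.6% to 17.0%, against 2.64% to 6.87% in control. cnc itself was lowest in replicate 1 and highest in replicate 3. Over 8111 genes, the level relative to the group mean changed with each doubling of exon length by -0.10, 0.04 and 0.06 on the log2 scale in CncC overexpression replicates 1 to 3, and by 0.07, -0.05 and -0.02 in control replicates 1 to 3. The part of exon length or of cnc level in this variation was not tested. kune, sinu and vari, with 1060 to 2867 bases of exon, had coefficients of variation of 3.07% to 5.30% in CncC overexpression and of 3.31% to 6.19% in control. nrv2, with 3568 bases, had coefficients of variation of 10.8% in CncC overexpression and 7.22% in control, and was lowest in CncC overexpression replicate 2.

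The other genes of the septate junction were described from a list of 22, of which 21 could be tested. In CncC overexpression 5 of the 21 were higher and 12 lower, against the background of 30.9% higher and 31.6% lower over all genes, and their median log2 fold change was -0.32. Of the core components, Lac (FBgn0010238), an immunoglobulin adhesion protein, was at 247.8, 219.7 and 271.0 CPM in CncC overexpression, against 479.1, 458.0 and 460.6 CPM in control. No CncC overexpression library came near the controls, and the log2 fold change of -0.92 (SE 0.10, adjusted p = 5.35e-05 from edgeR) was of the same size as that of Nrg, in the other direction. The ratio of Lac to Nrg was 2.38, 1.79 and 1.92 in CncC overexpression, against 7.04, 7.01 and 7.62 in control. Cont, the contactin that joins Nrx-IV and Nrg in the complex, was at 554.5, 607.5 and 699.2 CPM in CncC overexpression, against 511.2, 486.3 and 498.8 CPM in control (log2 fold change 0.32, SE 0.11, adjusted p = 0.0265 from edgeR). This call was lost without any control library (adjusted p = 0.0514, 0.0872 and 0.0968 without replicates 1, 2 and 3, from edgeR), without CncC overexpression replicate 3 (0.0617) and with upper-quartile scaling (0.0608). Tsf2, an iron-binding melanotransferrin of the junction, fell (log2 fold change -0.32, SE 0.10, adjusted p = 0.021 from edgeR), a call lost without control replicate 2 or 3 (adjusted p = 0.0587 and 0.0619) or CncC overexpression replicate 2 (0.0708). Fas3, an adhesion protein, and yrt, a FERM-domain polarity protein, did not pass the test (log2 fold changes -0.02 and 0.07, adjusted p = 0.898 and 0.549 from edgeR).

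The 3 tricellular genes moved apart. Gli (FBgn0001987), a neuroligin-like protein of the cell corners, was at 116.2, 119.3 and 143.8 CPM in CncC overexpression, against 238.1, 195.3 and 211.7 CPM in control, a log2 fold change of -0.77 (SE 0.11, adjusted p = 2.77e-04 from edgeR). M6, a proteolipid of the same sites, fell by 0.50 on the log2 scale (SE 0.08, adjusted p = 6.15e-04 from edgeR), and shares 609 exonic bases, 23.3% of its exons, with SAK on the opposite strand. SAK, a kinase of centriole duplication, fell too (log2 fold change -0.33, SE 0.07, adjusted p = 0.00295 from edgeR), and reads in the shared bases cannot be told apart. bark, also called Anakonda, was at 186.5, 215.4 and 255.5 CPM in CncC overexpression, against 179.5, 146.7 and 162.9 CPM in control (log2 fold change 0.43, SE 0.13, adjusted p = 0.0142 from edgeR). Without control replicate 2 bark did not pass (adjusted p = 0.0641 from edgeR). The ratio of Gli to bark was 1.43, 1.27 and 1.29 in CncC overexpression, against 3.04, 3.05 and 2.97 in control. All CncC overexpression libraries lay below the control libraries in this ratio, which follows from their levels, all below control for Gli and all above for bark.

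All 8 genes of the assembly list were lower, against 31.6% of all genes, with a median log2 fold change of -0.60. crok, a Ly6 protein, was at 56.2, 51.1 and 48.9 CPM in CncC overexpression, against 92.9, 106 and 102 CPM in control (log2 fold change -0.95, SE 0.09, adjusted p = 2.21e-05 from edgeR). The other Ly6 proteins bou, crim and cold had log2 fold changes of -0.80, -0.76 and -0.44 (adjusted p = 1.55e-04, 3.33e-04 and 0.00231 from edgeR), so that all 4 Ly6 genes of the list fell. crim shares 64 exonic bases, 8.51% of its exons, with Ccdc56 and mtTFB1 on the opposite strand, neither of which passed the test (log2 fold changes 0.14 and 0.18, adjusted p = 0.174 and 0.12 from edgeR). wun2, a lipid phosphate phosphatase, fell most, to 7.57 ± 1.56 CPM in CncC overexpression, against 17.4 ± 0.686 CPM in control (SD, n = 3 each; log2 fold change -1.20, adjusted p = 1.22e-04 from edgeR). Its paralog wun and the membrane proteins pasi1 and pasi2 had log2 fold changes of -0.34, -0.42 and -0.24 (adjusted p = 0.0213, 0.0175 and 0.02 from edgeR). These 3 calls were lost without control replicate 2 or 3 or CncC overexpression replicate 2. This left 5 of the 8 lower, where 26.9%, 25.9% and 26.2% of all genes were lower. Those of wun and pasi1 were also lost without CncC overexpression replicate 3, which left 6, where 28.3% of all genes were lower. Scaling by total counts alone also left 6, without wun and pasi2, where 28.6% of all genes were lower. With a fold change of at least 1.4, 4 of the 8 were lower, against 21.1% of all genes. The Scribble module, the basolateral polarity proteins that also lie at the septate junction, moved the other way. l(2)gl was at 339.3, 404.2 and 417.3 CPM in CncC overexpression, against 226.6, 213.3 and 207.6 CPM in control (log2 fold change 0.84, SE 0.10, adjusted p = 1.01e-04 from edgeR). scrib and dlg1 had log2 fold changes of 0.65 and 0.43 (adjusted p = 0.00406 and 0.00613 from edgeR), so that all 3 rose, against 30.9% of all genes.

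**Figure D4:**
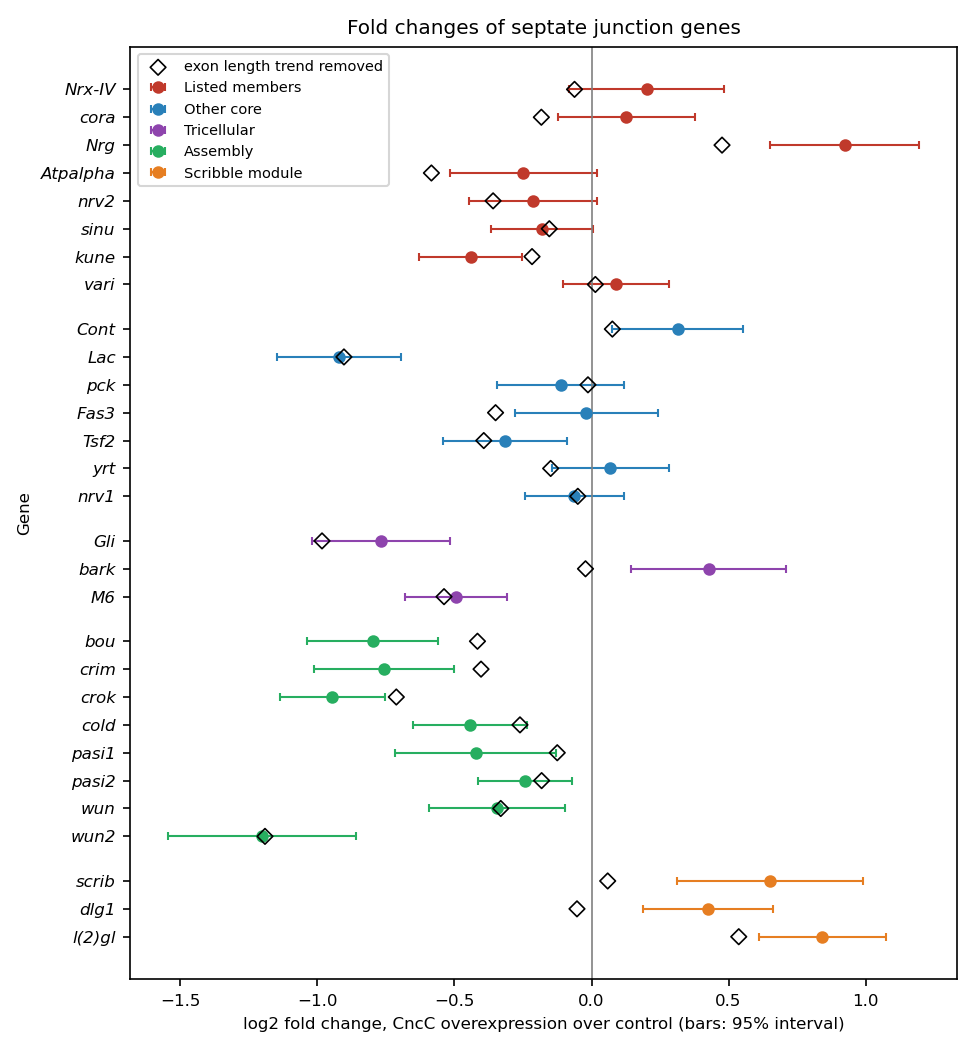
Log2 fold changes of 29 septate junction genes (filled circles, CncC overexpression over control, with 95% intervals), grouped by role, and the same with the trend with exon length removed (open diamonds). All 8 assembly genes are below 0 in both, whereas bark, scrib and dlg1 move to within 0.06 of 0 once the trend is removed.

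The fold changes over all genes rose with exon length, by 0.21 on the log2 scale for each doubling over 8159 genes, and the roles differ in length. The median summed exon length was 4.353 kb for the 8 members, 1.095 kb for the assembly genes and 11.51 kb for the Scribble module, against 2.153 kb for all genes tested. With the trend removed within each library, Nrg remained higher at 0.48 (adjusted p = 7.71e-04 from edgeR) and kune lower at -0.22 (adjusted p = 0.0205). Atpalpha and nrv2 were then lower, at -0.58 and -0.36 (adjusted p = 2.1e-04 and 0.0171 from edgeR). This made 1 member higher and 3 lower, where 28.9% of all genes were higher and 32.9% lower. Nrx-IV and cora, at -0.06 and -0.18 (adjusted p = 0.551 and 0.0776 from edgeR), changed sign without passing. Lac at -0.90, Gli at -0.98 and l(2)gl at 0.54 kept their calls (adjusted p = 3.46e-05, 1.26e-05 and 1.04e-04 from edgeR), as did 7 of the 8 assembly genes, all but pasi1. The assembly genes changed less once the trend was removed, with a median log2 fold change of -0.37 in place of -0.60. Cont, bark, scrib and dlg1, at 0.08, -0.02, 0.06 and -0.05, lost theirs (adjusted p = 0.398, 0.799, 0.492 and 0.435 from edgeR), and Fas3 and yrt were lower, at -0.35 and -0.15 (adjusted p = 0.00724 and 0.0415 from edgeR).

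**Figure D5:**
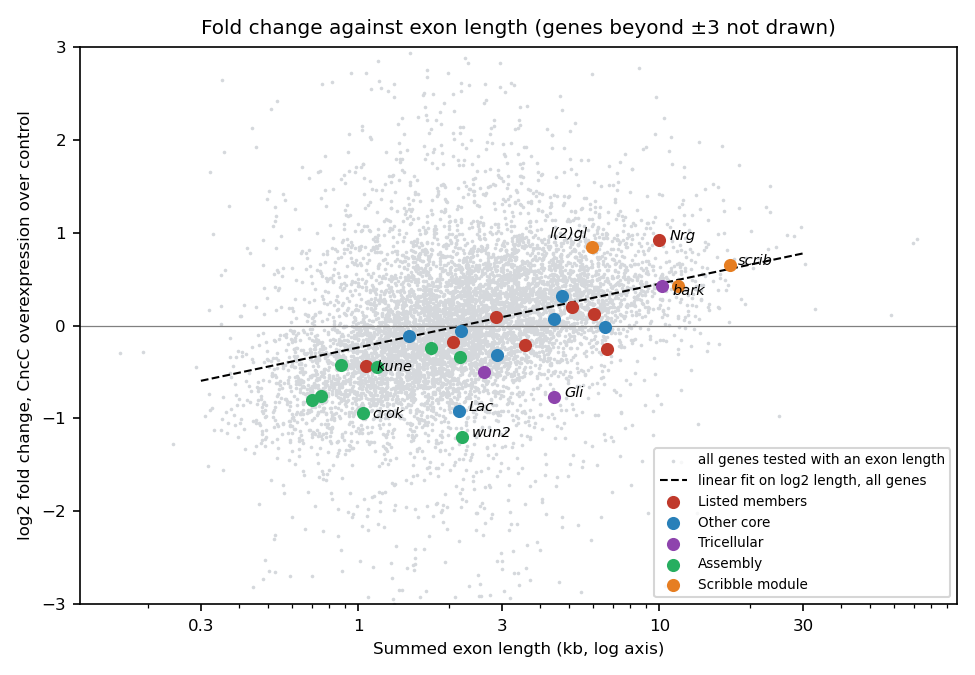
Log2 fold change (CncC overexpression over control) against summed exon length in kb (log axis) for all genes tested that have a length (grey), with the septate junction genes coloured by role and a linear fit over all genes (dashed). The fit rises by 0.21 for each doubling of length; Nrg and l(2)gl lie above it, and Lac, Gli, wun2 and crok lie below it.

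The 9 adherens junction genes examined beside them had a median log2 fold change of -0.03. Of these 9, 1 was higher (cno, which links the junction to actin) and 2 were lower (alpha-Cat and p120ctn, both catenins), against 30.9% higher and 31.6% lower over all genes, while shg, which encodes E-cadherin, and arm, which encodes beta-catenin, did not pass (log2 fold changes 0.07 and -0.15, adjusted p = 0.708 and 0.18 from edgeR). These calls moved with the setting. When the length trend was removed, 0 were higher and 5 lower, where 28.9% of all genes were higher and 32.9% lower. With total counts, 3 were higher and 0 lower, where 33.7% of all genes were higher and 28.6% lower. With each library left out, 0 to 3 were higher and 0 to 2 lower. Over all genes, 25.5% to 32% were then higher and 25.9% to 32.6% lower.

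Septate junction genes are also expressed outside the disc epithelium, and in whole discs fewer cells of a type cannot be told apart from less RNA per cell. The 6 glial genes listed summed to between 81.9 and 92.9 CPM in CncC overexpression and to between 80.1 and 82.9 CPM in control, almost all of it from loco and moody, while the defining marker repo had at most 11 counts, gcm at most 2 and alrm at most 1 in any library. Eaat1, too low to be tested, had 0, 0 and 0 counts in CncC overexpression, against 6, 4 and 1 counts in control. The 3 tracheal genes with counts, of which verm and serp rose and trh did not pass, summed to between 1304 and 1585 CPM in CncC overexpression and to between 947 and 1122 CPM in control. Most of this sum was verm and serp, whereas trh, at a mean of 75.9 CPM in CncC overexpression and 64.6 CPM in control, overlapped between the genotypes. The 6 haemocyte genes were at 14.6 to 19.8 CPM in CncC overexpression and 11.4 to 17.1 CPM in control. Most of this sum was Pxn, which rose, whereas Hml did not pass the test (log2 fold change -0.69, adjusted p = 0.174 from edgeR). The markers srp, He and eater had at most 18 counts in any library, too few to be tested. Their CncC overexpression libraries all lay below the control libraries, as did those of 34.9% of all genes tested. NimC1, also too low to be tested, had 5, 4 and 0 counts in CncC overexpression, against 1, 0 and 1 counts in control, and overlapped. The 5 muscle precursor genes were at 191 to 221 CPM in CncC overexpression and 231 to 251 CPM in control, with twi, Him and zfh1 lower. The other genes of this list, htl and Mef2, did not pass the test (log2 fold changes -0.10 and 0.15, adjusted p = 0.472 and 0.113 from edgeR). Mef2 had the highest level of the 5, at 90.4 CPM in CncC overexpression and 81.6 CPM in control. Of 11 genes that respond to the moulting hormone ecdysone, 8 were lower and 2 higher (EcR and ftz-f1), against 31.6% lower and 30.9% higher over all genes, with log2 fold changes from -7.14 to 2.77, while those of the septate junction genes ran from -1.20 to 0.92. The part of nerve, trachea, muscle precursors and hormonal stage in the values of Nrg, kune, Lac, Gli, the assembly genes and the Scribble module was not tested.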

How the data were processed

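Counts from the wing discs of 3 CncC overexpression and 3 control samples were compared. The authors deposited whole-number read counts for 13955 genes per sample, and these entered the tests as deposited. The submitters' processing notes name FastQC 0.11.5, Bowtie and the build BDGP6, while the counting tool, annotation and use of strand are not given in the sources used here. A table of the whole series holds the same values and was not used. Totals ran from 16464410 to 16682764 counts, and no library repeated another.

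The test was the quasi-likelihood test of edgeR 4.0.16 (R 4.3.3) with TMM scaling and filterByExpr, and p-values were adjusted by Benjamini-Hochberg over 8361 genes. CPM are TMM-scaled. The SE of a log2 fold change is its size over the root of F, and 95% intervals used the t quantile. Symbols were found for 13661 of 13955 identifiers. Coordinates and the union of exons per gene were taken by identifier from the Ensembl gene models for BDGP6.54. Alternatives were other scalings, DESeq2 1.42.0, limma-voom (limma 3.58.1), other filters and thresholds, the replicate block, each library left out, and removal of the exon length trend (loess within each library, span 0.5, over 8159 genes). The procedures were tested on simulated counts.

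The members and lists were chosen with earlier results of these data known. The rule was to name all members, their paralogs, the tricellular genes and up to 8 further genes of the other lists with the largest changes past the test. Values of Cont, Tsf2, Fas3, yrt, dlg1, pasi1, pasi2, wun, shg and arm were added after they were seen. The listed genes Mcr, ap, wg, btl, br and dys were not analysed here.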

Additional observations from a re-analysis of the deposited data

How the results depend on the processing

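The calls of Nrg and kune kept their direction and their side of the threshold under every scaling, test, filter, block and left-out library tried and with the exon length trend removed, with log2 fold changes from 0.48 to 1.04 for Nrg and from -0.51 to -0.22 for kune. The number of members lower was 4 with upper-quartile scaling, where 35.3% of all genes were lower, and 3 with the exon length trend removed, where 32.9% were. It was 0 at a fold limit of 1.4 (0 also at an unadjusted p under 0.05 with that limit, and by DESeq2 and limma-voom). With each library left out, 1 to 2 members were lower and 1 to 2 higher. Over all genes, 25.9% to 32.6% were then lower and 25.5% to 32% higher. The median log2 fold change of the members moved to -0.12 with upper-quartile scaling, where that of all genes was -0.09, and to -0.17 with the length trend removed. Of the other septate junction genes, 1 was higher and 13 lower with the length trend removed, where 28.9% of all genes were higher and 32.9% lower. At the fold limit, 2 were higher and 7 lower, against 20.5% and 21.1% of all genes. At an adjusted p under 0.01, 3 were higher and 8 lower, and the share of all genes at that threshold was not counted. With the length trend removed, bark (-0.022) and dlg1 (-0.053) changed sign and lost their calls, yrt (-0.149) changed sign and gained one, and Nrx-IV (-0.062) and cora (-0.183) changed sign uncalled. So did yrt (-0.008) with upper-quartile scaling, and Fas3 with total counts (0.036) and without CncC overexpression replicate 1 or 2 (0.054 and 0.040, with a range from -0.126 to 0.054 over the libraries left out). The cause was not tested. With the replicate block, 1 member was higher and 1 lower. Of the other genes, 4 were higher and 11 lower (Cont and pasi2 were lost), where 27.4% of all genes were higher and 27.7% lower. Same-numbered libraries had correlations of deviations of -0.209, 0.088 and 0.127, against -0.301 to 0.207 for libraries of different numbers. With 3 libraries a group, these values show no pairing by number and cannot exclude one. Of 435 values of single genes under alternatives, 391 kept direction and side of the threshold, 29 lost a call, 9 gained one and 6 changed sign without a call. At 3 libraries a group, members whose intervals reach 0 may have changed by less than those bounds.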
